A study of Mus musculus with 12 samples.

Results

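The genes described here encode the proteins of the cytosolic ribosome. They were taken as every gene whose probe set carried a single symbol of the form Rpl or Rps followed by a number, with Rpsa, Rplp0, Rplp1 and Rplp2 added, and each gene was read from its brightest probe set. This gave 61 genes of the 19937 genes with a single-symbol probe set: 23 of the small subunit and 38 of the large subunit. Of these, 54 are standard ribosomal proteins, 6 are listed paralogs of them (Rpl3l, Rpl7l1, Rpl10l, Rpl39l, Rps4l and Rps27l) and 1 is Rpl32l, a gene named as a further copy. RefSeq lists 89 symbols of the same form, and 28 of them, Rpl3, Rpl11 and Rps27a among them, lacked a probe set with that symbol alone, so they are not described gene by gene.

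The arrays came from a mouse model of breast cancer growing in bone. EO771 cells, a mouse mammary cancer line, were injected into the heart of female C57BL/6 mice (500000 cells) and followed for about 2 weeks while tumor grew in the long bones. From long bones of mice with and without tumor, osteoblasts were sorted as GFP-, Ter119- (spelt TR119 in the labels), CD45-, SCA1-, CD31- and CD51+ cells, and endothelial cells as GFP-, TR119-, CD45-, SCA1+ and CD31+ cells. RNA of 5000 cells was amplified for each Affymetrix Mouse Gene 1.0 ST array. The 4 groups were therefore osteoblasts from tumor-bearing mice, osteoblasts from tumor-free mice, endothelial cells from tumor-bearing mice and endothelial cells from tumor-free mice, with 3 arrays each. The labels call these arrays biological replicates without saying whether an array held 1 mouse or several, whether both cell types came from the same mice, or what the tumor-free mice received.

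A ribosome has a small subunit, which binds the mRNA and reads its codons, and a large subunit, which joins amino acids into protein. Each ribosomal protein is normally present in a single copy per ribosome, except for the acidic stalk proteins, and the genes are usually expressed in concert. Most of their mRNAs begin with a C and a run of pyrimidines, the 5′ terminal oligopyrimidine tract, through which mTOR signalling adjusts their translation. Osteoblasts secrete large amounts of collagen and other matrix proteins, and so rely on abundant translation.

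The start of these mRNAs is the sequence feature by which the family is best known, so windows of 30 bases, from 10 before to 20 from the RefSeq start site, are shown for genes on which the results below turn and for genes that carry the tract (RefSeq, build GRCm38.p6, strand of the gene). In the first 6 windows the capitals mark a C at the annotated start with the pyrimidines that follow it.
Rps6, small subunit, target of S6 kinase, chr4:86857348-86857377, minus strand: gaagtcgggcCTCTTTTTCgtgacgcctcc
Rps10, small subunit, chr17:27635225-27635254, minus strand: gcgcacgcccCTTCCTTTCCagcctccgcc
Rps18, small subunit, chr17:33955646-33955675, minus strand: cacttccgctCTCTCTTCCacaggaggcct
Rpl28, large subunit, chr7:4792955-4792984, plus strand: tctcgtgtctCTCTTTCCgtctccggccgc
Rpl14, large subunit, chr9:120571507-120571536, plus strand: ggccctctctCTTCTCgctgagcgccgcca
Rplp2, stalk, chr7:141447641-141447670, plus strand: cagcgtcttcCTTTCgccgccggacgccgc
The 3 genes that differed between the cell types, described below, have no such run at the annotated start. Most ribosomal protein genes lack it there too: 10 of the 49 genes with a window carried it. In their windows the capitals mark CCGGAA read on the opposite strand (TTCCGG), and Rplp0 has no mark.
Rplp0, stalk base, chr5:115559457-115559486, plus strand: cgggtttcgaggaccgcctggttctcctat
Rpsa, small subunit and laminin receptor, chr9:120127756-120127785, plus strand: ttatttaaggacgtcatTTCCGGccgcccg
Rpl39l, paralog of Rpl39, chr16:10170218-10170247, plus strand: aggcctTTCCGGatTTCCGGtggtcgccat
The promoter table held 58 windows for 49 of the 61 genes. A C at the start followed by at least 4 pyrimidines was found in 10 of the 58 windows, 17.2% (exact 95% binomial interval 8.59 to 29.4%), against 2.51% of all 32851 windows in the table. The interval treats windows as independent, although some genes had more than 1 window. By gene the share was 20.4%, 10 of 49. Asking for at least 6 pyrimidines gave 12.1% against 1.08%, and letting the start move by up to 5 bases gave 34.5% against 18.3%. CCGGAA on either strand, anywhere in the 300 bases from 250 before to 50 from the start, was in 46.6% of the windows of ribosomal protein genes and in 14.9% of all windows. TATAAA on either strand was in 10.3% and 13.6%. Each count is of letters at annotated starts; it does not show that a factor binds or that a transcript begins there.

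The sorted cells carried the markers of their labels. Col1a1, the main bone collagen gene, had log2 values of 10.80 to 11.30 in the 6 osteoblast arrays and 7.36 to 7.69 in the 6 endothelial arrays. Cdh5, the endothelial cadherin, had values of 11.39 to 11.91 in endothelial arrays and 5.54 to 6.23 in osteoblast arrays. The osteoblast arrays also carried cartilage genes, since the median of 10 chondrocyte markers was 8.09 to 9.99 there and 6.21 to 6.62 in endothelial arrays. The third array of each osteoblast group stood apart: the median of 10 pan-haematopoietic markers was 6.63 in the third array from tumor-bearing mice and 6.80 in the third from tumor-free mice, against 5.86 to 5.95 in the remaining 4. In that same array from tumor-free mice the neutrophil median was 9.49, where the remaining osteoblast arrays had 5.95 to 7.12. Array medians over all probe sets lay between 5.95 and 6.04.

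Ribosomal protein genes were among the brightest signals in both cell types. Of the 60 genes that passed the filter on dim signals, 45 to 49 were in the top 5% of all 34760 probe sets in each array. The filter asked for a value above the array's 40th percentile in at least 3 of 12 arrays, and Rpl3l, a paralog of Rpl3 known from skeletal muscle, did not pass it, with values of 5.18 to 5.47. The median log2 value of the 60 genes was 11.51, 11.57 and 11.73 in osteoblasts from tumor-bearing mice and 11.48, 11.45 and 11.48 in osteoblasts from tumor-free mice. It was 11.40, 11.44 and 11.19 in endothelial cells from tumor-bearing mice and 11.33, 11.39 and 11.37 in endothelial cells from tumor-free mice. The osteoblast arrays from tumor-bearing mice were therefore the highest of the 12, and the third endothelial array from tumor-bearing mice was the lowest. The highest values of any probe set in an array were 13.31 to 13.47, so genes such as Rps6, at 12.86 to 13.03, lie near the top of the scale; whether differences are compressed there was not tested. A sorted population holds a mixture of cells, and a change in its makeup and a change in RNA per cell cannot be told apart in such arrays.

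**Figure D1:**
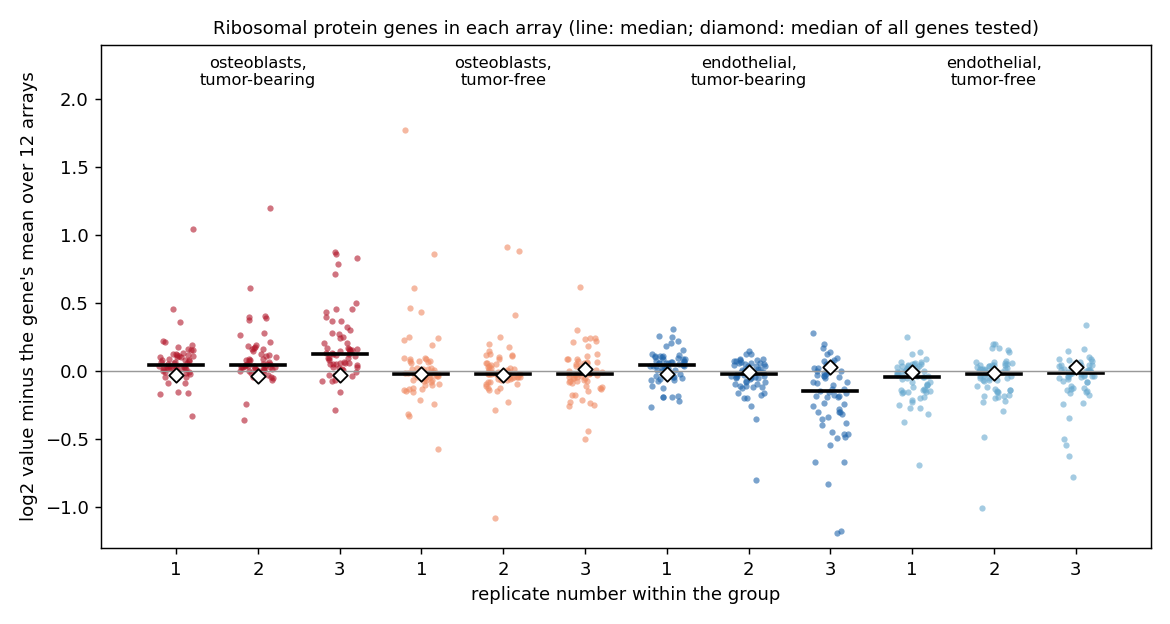
Log2 value of each of the 60 ribosomal protein genes minus that gene's mean over the 12 arrays (vertical axis), for each array (horizontal axis, by group and replicate number); black lines are medians of the 60 genes and diamonds are medians of all 14217 genes tested. The medians of the ribosomal protein genes lie at 0.05, 0.05 and 0.13 in osteoblasts from tumor-bearing mice and at -0.15 in the third endothelial array from tumor-bearing mice.

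The same shift is seen gene by gene. In osteoblasts from tumor-bearing mice, 45, 49 and 51 of the 60 genes were above their own 12-array mean, and in osteoblasts from tumor-free mice 24, 25 and 25 were. In endothelial cells from tumor-bearing mice the numbers were 42, 23 and 14, and in endothelial cells from tumor-free mice 21, 25 and 24. Among all genes tested, 42.8 to 56.6% were above their own mean in an array. Replicates of a group also differed together: 45 of the 60 genes were above their group mean in the third osteoblast array from tumor-bearing mice and 13 of 60 in the third endothelial array from tumor-bearing mice.

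The spread between replicates was small for most of these genes. The pooled within-group standard deviation had a median of 0.11 on the log2 scale over the 60 genes and 0.23 over all genes tested. Bright genes vary less, and of genes with a mean above 11 the 39 ribosomal protein genes had a median of 0.09 and all 152 such genes 0.11. Rps9, a small-subunit protein that helps to keep decoding accurate, had the lowest value of all 14217 genes tested, 0.03, with values from 11.37 to 11.44 over the 12 arrays. Rps6, the small-subunit protein phosphorylated by S6 kinase, lay between 12.86 and 13.03, and its 4 group means were 12.93, 12.94, 12.94 and 12.97. The genes that varied most were Rpl14 (0.68), Rplp2 (0.54), Rpl39l (0.52), Rpl12 (0.50), Rps27l (0.46) and Rpl7l1 (0.36), among them 3 paralogs. In endothelial cells from tumor-bearing mice the median within-group standard deviation of the 60 genes was 0.14, against 0.07 to 0.08 in the other 3 groups.

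**Figure D2:**
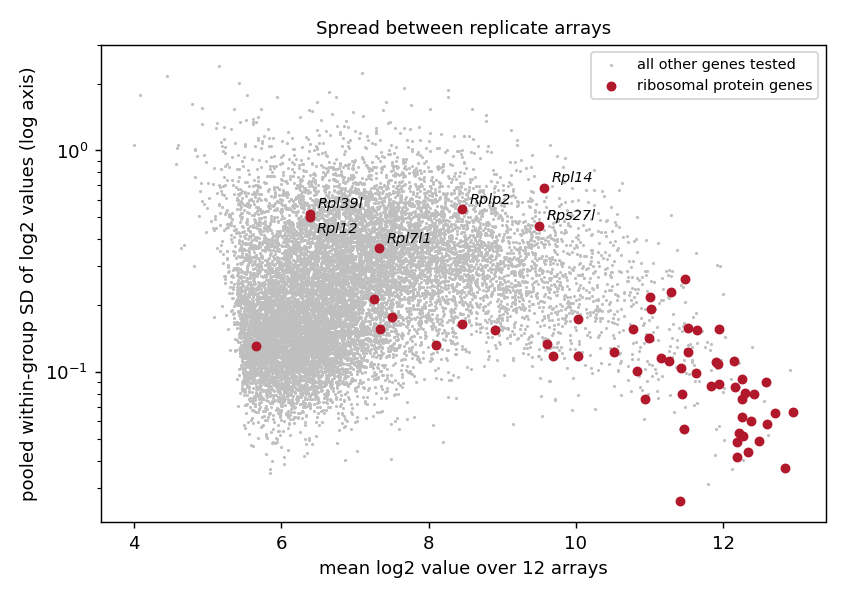
Pooled within-group standard deviation (vertical axis, log scale) against the mean log2 value over 12 arrays (horizontal axis) for the 60 ribosomal protein genes (red) and all other genes tested (grey). Most ribosomal protein genes lie at the bright end with a low spread, and the 6 named genes vary most.

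The first comparison asks whether ribosomal protein genes differ between osteoblasts of mice with and without tumor. No gene passed the test by itself, yet most had the higher value in tumor-bearing mice: 51 of 60 genes had a log2 fold change above 0, against 46.7% of all genes tested. The median log2 fold change was 0.10 over the 60 genes and -0.02 over all genes. Since the genes of an array deviate together, counts of genes here and below rest on 3 arrays a group, not on 60 separate observations. The median of the 60 genes varied between replicate arrays with a pooled standard deviation of 0.09, close to the size of this shift. In 26 of the 60 genes all 3 arrays from tumor-bearing mice were above all 3 from tumor-free mice, and in 0 genes all were below; among all genes tested, 6.18% were wholly higher and 8.36% wholly lower. With quantile normalization, 13 genes were wholly higher and 0 wholly lower, against 5.74% and 8.09% among all genes. Without the third array of both groups, which then leaves 2 against 2, the numbers were 32 and 2, against 18.7% wholly higher and 19.2% wholly lower among all genes, and the median was 0.07.

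Both subunits showed this. Values were positive for 20 of 23 small-subunit genes (median 0.07) and for 31 of 37 large-subunit genes (median 0.10). The mRNA path proteins Rps2, Rps3, Rpsa, Rps14 and Rps28, which line the channel for the mRNA in the small subunit, all had positive values, between 0.05 and 0.15. Rpl19, Rpl23a and Rpl26, which sit around the exit of the nascent protein, had values of 0.23, 0.08 and 0.08. Rpl5, which carries the 5S rRNA into the ribosome and also binds Mdm2, had values of 11.65, 11.71 and 11.75 against 11.61, 11.59 and 11.63, a log2 fold change of 0.10. Those 2 groups of arrays did not overlap, but the adjusted p of limma was 0.796. The next brightest probe sets of Rpl5 gave -0.09 and 0.06, so they did not share 1 direction. Of 9 measured genes whose human counterparts are mutated in Diamond-Blackfan anaemia, 8 had positive values, with a median of 0.08; the exception was Rps19, at -0.15.

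With limma and Benjamini-Hochberg adjustment over all 14217 genes tested, 0 of the 60 genes passed an adjusted p of 0.05, where 0.0563% of all genes did. At an unadjusted p under 0.05 there were 4, of which 3 were higher and 1 lower, against 9.78% of all genes. Rpl13, a large-subunit protein, had the smallest p among the higher ones. Its values were 11.33, 11.35 and 12.09 in tumor-bearing mice and 11.16, 11.01 and 11.08 in tumor-free mice, a log2 fold change of 0.51 ± 0.18 (standard error; limma adjusted p = 0.396). The groups did not overlap, but the third array accounts for much of the size, and without it the value was 0.26. Rpl32l (0.29 ± 0.12), Rplp0 (0.26 ± 0.12), Rpl29 (0.29 ± 0.14) and Rpl7 (0.23 ± 0.11) followed, with limma adjusted p from 0.482 to 0.560.

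Rplp2, which pairs with Rplp1 in the stalk that recruits the translation factors, went the other way. Its values in osteoblasts from tumor-free mice were 10.23, 9.34 and 8.20, and in those from tumor-bearing mice 8.29, 8.10 and 8.55. The arrays from tumor-free mice thus differed widely and overlapped the other group, and the log2 fold change of -0.95 ± 0.40 had a limma adjusted p of 0.482. Leaving out 1 array at a time moved it between -1.47, without the third array from tumor-free mice, and -0.46, without the first. Its partner Rplp1 had values of 11.10, 11.13 and 11.12 against 11.04, 10.94 and 11.07, a log2 fold change of 0.10 ± 0.09. Rps4l (-0.22 ± 0.14), Rps19 (-0.15 ± 0.15), Rpl41 (-0.05 ± 0.11) and Rpl10l (-0.04 ± 0.12) were the next lowest by the moderated statistic, all with limma adjusted p of 0.635 or more.

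**Figure D3:**
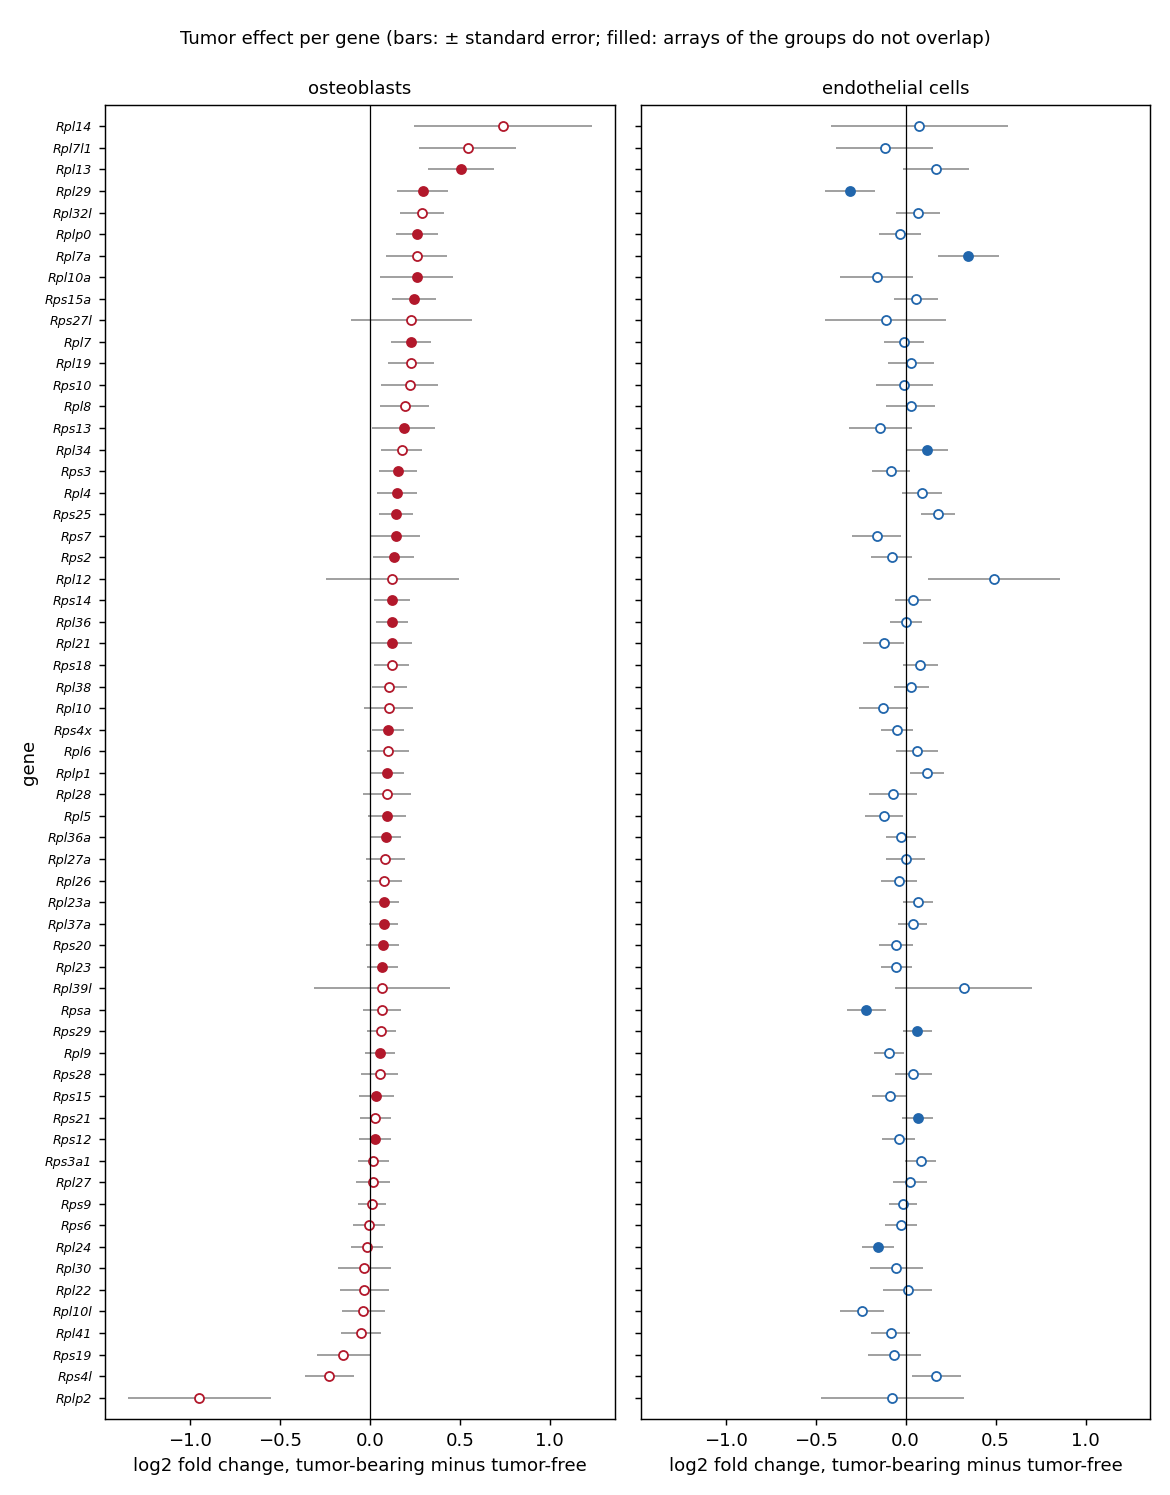
Log2 fold change of each of the 60 ribosomal protein genes (rows, ordered by the osteoblast value), tumor-bearing minus tumor-free, in osteoblasts (left) and endothelial cells (right), with bars of 1 standard error from limma; filled points are genes whose 3 arrays of one group lie wholly above or below the 3 of the other. In osteoblasts 26 points are filled, all above 0, and in endothelial cells 7 are filled, 4 above and 3 below 0.

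Probe sets other than the brightest were read in the same way. The other probe sets of these genes gave 102 of 125 positive values in osteoblasts, with a median of 0.16, over 38 genes. Probe sets that name a ribosomal protein gene together with other symbols, which are left out above, gave 164 of 194 positive values, with a median of 0.12. These probe sets measure overlapping transcripts in the same arrays and are no further replicates. Many ribosomal protein genes have processed pseudogenes of near-identical sequence, so which copy a probe set reads is uncertain.

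Markers of other cells differed between the osteoblast groups as well. All 9 tested neutrophil markers were lower in tumor-bearing mice, with a median log2 fold change of -1.03, and none passed the test; the sum of the 10 markers on the linear scale was 1616 to 4182 in arrays from tumor-bearing mice and 3663 to 13688 in those from tumor-free mice. Of 9 tested chondrocyte markers, 8 had positive values, with a median of 0.19 and sums of 3142 to 10198 against 3110 to 11763. Of 9 tested macrophage markers 6, of 9 pan-haematopoietic markers 4, and of 7 B cell and 7 erythroid markers 1 each had positive values, and none of these passed the test. With tumor, 4 of the 7 B cell and 3 of the 7 erythroid markers were wholly lower, against 8.36% of all genes. In each of these 2 lists 3 markers had an unadjusted limma p under 0.05, all lower, against 9.78% of all genes in either direction. The erythroid sums did not overlap, at 491 to 668 against 799 to 1094, while the B cell sums did, at 771 to 1128 against 981 to 1972. The part of all these markers in the ribosomal protein result was not tested.

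Other genes of the translation machinery were compared in the same osteoblast arrays. Of 15 tested translation factors and other mRNAs known to carry a terminal oligopyrimidine tract, 14 had positive values, with a median of 0.20, and 0 passed the test. Eef1b2, a subunit of the exchange factor of elongation factor 1, had values of 11.42, 11.49 and 11.43 in tumor-bearing mice and 10.95, 11.05 and 11.09 in tumor-free mice. These groups did not overlap, with a log2 fold change of 0.42 ± 0.10 and a limma adjusted p of 0.196. Eif3f (0.70), Eif3e (0.76) and Naca (0.32) were next by p. Of 23 genes for making ribosomes in the nucleolus, 21 had positive values, with a median of 0.35, and again 0 passed. Tsr1, a factor of small-subunit assembly, had a log2 fold change of 0.97 ± 0.25 (limma adjusted p = 0.248), Nop58, a core protein of the box C/D particles that modify rRNA, 0.53 ± 0.15, Nhp2 0.92 ± 0.28 and Ltv1 0.57 ± 0.20.

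Myc, a transcription factor known to drive ribosome production, did pass. Its values were 10.34, 10.12 and 10.51 in osteoblasts from tumor-bearing mice and 8.97, 9.22 and 8.49 in those from tumor-free mice, and the groups did not overlap. Its log2 fold change was 1.43 ± 0.19 with a limma adjusted p of 0.0415, and it was 1 of 8 genes called over all genes. It passed in 9 of 22 alternatives, with adjusted p from 0.0201 to 0.458, and the call was lost on leaving out any 1 array other than the second or the third osteoblast array from tumor-free mice. Of the other 7 tested genes of the list of growth control genes, Eif4e, the cap-binding protein, had 0.53 ± 0.19 (limma adjusted p = 0.410), and Mdm2 0.33 and Mtor 0.17 followed. With Myc included, 5 of the 8 tested genes of this list had positive values and 3 negative ones, down to -0.16. Fau, which encodes the ribosomal protein eS30 as a fusion, was the only measured member of the list of ribosomal genes under other names, at 0.27 ± 0.15.

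**Figure D4:**
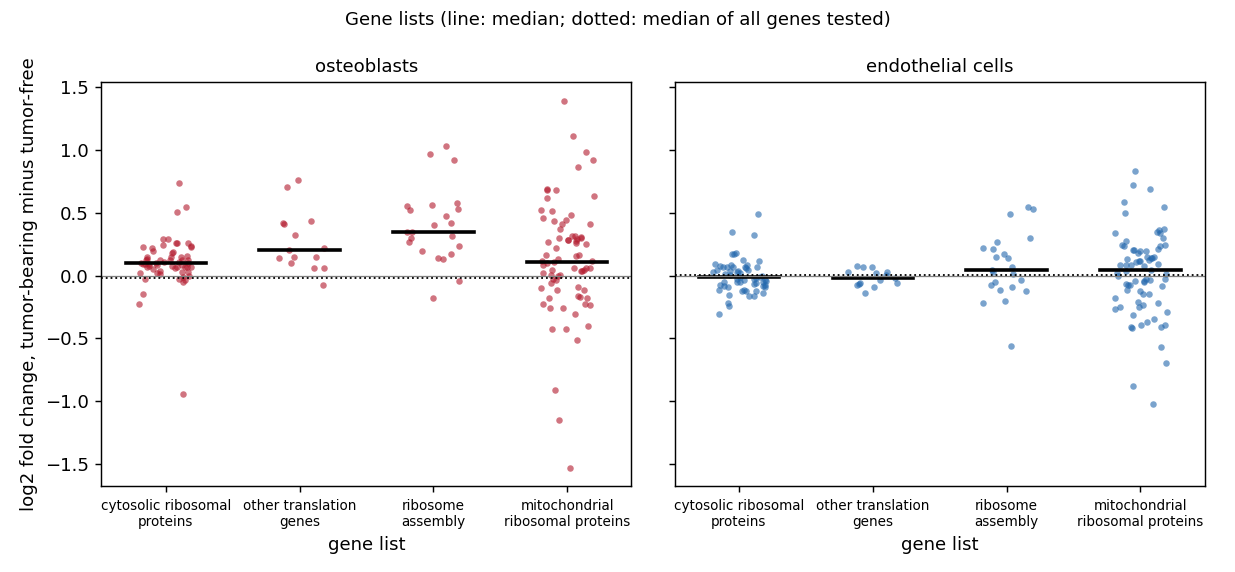
Log2 fold changes, tumor-bearing minus tumor-free (vertical axis), of 60 cytosolic ribosomal protein genes, 15 other translation genes with a terminal oligopyrimidine tract, 23 ribosome assembly genes and 76 mitochondrial ribosomal protein genes (horizontal axis), in osteoblasts (left) and endothelial cells (right). Lines mark the medians, 0.10, 0.20, 0.35 and 0.11 in osteoblasts and -0.01, -0.02, 0.04 and 0.04 in endothelial cells, and the dotted line the median of all genes tested.

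In endothelial cells the tumor comparison gave no common direction. Values were positive for 27 of the 60 genes and the median was -0.01, against 51.4% and a median of 0.01 over all genes tested. With each array centred on its median, 34 of 60 were positive, with a median of 0.02. In 4 genes (Rpl7a, Rpl34, Rps21 and Rps29) the arrays from tumor-bearing mice were wholly higher, against 5.63% of all genes, and in 3 (Rpsa, Rpl24 and Rpl29) wholly lower, against 4.87%; centring turned these numbers into 10 and 0, and the shares over all genes into 8.55% and 3.47%. By limma, 0 of 60 genes passed, against 0.0141% of all genes, and 0 had an unadjusted p under 0.05, against 4.59%. The third array decides the balance: without it 45 of 60 genes were positive, with a median of 0.07, and without the first array from tumor-bearing mice 19 were, with a median of -0.07. Osteoblast markers differed between these endothelial groups too: 6 of 8 had positive values, 2 of them wholly higher in tumor-bearing mice, with a median of 0.10, and none passed the test. Their sum on the linear scale was 2387, 1204 and 1240 in the first, the second and the third array from tumor-bearing mice and 829 to 989 in tumor-free mice, against 13422 to 18436 in osteoblasts. Of the 60 ribosomal protein genes, 51, 33 and 13 were above the group mean in the first, the second and the third array from tumor-bearing mice. The part of these markers in the result was not tested.

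Rpl7a, a large-subunit protein, had the highest statistic in endothelial cells, with values of 7.28, 7.23 and 7.32 in tumor-bearing mice and 6.99, 7.08 and 6.71 in tumor-free mice. Its log2 fold change was 0.35 ± 0.17, with a limma adjusted p above 0.99, and its next brightest probe set gave -0.01. Rps25 (0.18 ± 0.10), Rpl12 (0.49 ± 0.37), Rplp1 (0.12 ± 0.09) and Rps4l (0.17 ± 0.14) followed. Rpl29, a heparin-binding large-subunit protein, was the lowest by that statistic, with values of 8.49, 8.34 and 7.99 against 8.71, 8.52 and 8.52, a log2 fold change of -0.31 ± 0.14. Rpsa (-0.22 ± 0.11), Rpl10l (-0.24 ± 0.12), Rpl24 (-0.15 ± 0.09) and Rps7 (-0.16 ± 0.14) were also low, and Rps7 was near 0 without the third array from tumor-bearing mice. For Rpl24 the other probe sets gave -0.04 and 0.05. The list of tract-bearing translation genes had 7 of 15 positive values there, and the assembly list 14 of 23, with none passing.

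The difference between the tumor effects, osteoblast minus endothelial, was tested in the same fit. It was positive for 47 of 60 genes, against 47.0% of all genes, with a median of 0.12 against -0.02, and 0 genes passed, where 0.0281% of all genes did. Without the third endothelial array from tumor-bearing mice the median was 0.06, with 42 genes positive. Rpl29 had the only unadjusted p under 0.05, where 6.47% of all genes had one, with a difference of 0.60 ± 0.20 (limma adjusted p = 0.663). Its values in osteoblasts were 8.67, 8.74 and 8.46 in tumor-bearing mice and 8.43, 8.34 and 8.22 in tumor-free mice, wholly higher with tumor, where the endothelial arrays were wholly lower. Rpl7l1 (0.66 ± 0.38), Rpsa (0.29 ± 0.15), Rplp0 (0.29 ± 0.16) and Rps3 (0.24 ± 0.15) were the next highest by statistic, and Rps4l (-0.39 ± 0.19), Rplp2 (-0.87 ± 0.56), Rpl12 (-0.37 ± 0.52), Rps3a1 (-0.07 ± 0.12) and Rpl39l (-0.26 ± 0.54) the lowest. Their limma adjusted p lay between 0.793 and 0.967. Tumor-bearing minus tumor-free differences that miss the threshold do not show that both cell types respond alike.

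The cell types themselves were compared within each condition. In tumor-free mice the ribosomal protein genes were balanced between osteoblasts and endothelial cells: 31 of 60 had the higher mean in osteoblasts, against 49.1% of all genes, and the median log2 fold change was 0.02. Of 60 genes 10 were wholly higher in osteoblasts and 10 wholly lower, against 13.6% wholly higher and 15.8% wholly lower among all genes tested, and with each array centred on its median the numbers were 13 and 4, against 15.7% and 14.4%. By limma 1 gene passed, where 12.4% of all genes did, a larger share than among the ribosomal protein genes; 5.38% of all genes were called higher in osteoblasts. At an unadjusted p under 0.05 there were 7 of 60, against 23.5% of all genes.

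That gene was Rpl39l, the paralog of Rpl39 at the tunnel exit that is best known from testis. Its values were 7.25, 6.80 and 7.01 in osteoblasts and 4.99, 6.10 and 5.61 in endothelial cells of tumor-free mice. All osteoblast arrays were above all endothelial ones, a log2 fold change of 1.45 ± 0.38 or 2.74-fold (limma adjusted p = 0.0306). Rpl39l was read from 1 probe set, which was above the 40th percentile in 11 of 12 arrays. Its lowest endothelial values were close to the dim end of the scale, so the size of the fold change is uncertain. The call was lost without the first, the second or the third osteoblast array from tumor-free mice (adjusted p = 0.0929, 0.0508 and 0.0692), and without the first or the third endothelial array from tumor-free mice (0.120 and 0.0787). In tumor-bearing mice its values were 7.44, 7.59 and 6.24 in osteoblasts and 6.36, 5.59 and 5.72 in endothelial cells. These groups overlapped, and the log2 fold change of 1.20 ± 0.38 had a limma adjusted p of 0.0758. Under the alternatives the limma adjusted p ran from 0.0109 to 0.229, and 3 of 22 passed. Between tumor-bearing and tumor-free mice it differed by 0.07 ± 0.38 in osteoblasts and 0.32 ± 0.38 in endothelial cells.

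The other genes with high statistics in tumor-free mice included the stalk. Rplp0 was 0.35 ± 0.12 higher in osteoblasts, Rplp2 1.10 ± 0.40 and Rplp1 0.25 ± 0.09, with limma adjusted p of 0.0835, 0.114 and 0.122. Rps4l, annotated as a transcribed pseudogene, had 0.40 ± 0.14. The lowest were Rps3 (-0.23 ± 0.11), Rps15a (-0.25 ± 0.12), Rpl9 (-0.16 ± 0.08), Rpl29 (-0.25 ± 0.14) and Rpl7l1 (-0.40 ± 0.27), with limma adjusted p of 0.212 to 0.434. The third osteoblast array, with its haematopoietic markers, had the lowest Rplp2 value of that group, and without it Rplp2 differed by 1.62 with a limma adjusted p of 0.00358. Without the first array the difference was 0.61 (adjusted p of limma 0.284) and without the second 1.05 (0.214), so its size depends on which of the 3 arrays are used.

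In tumor-bearing mice the balance was different. Of the 60 genes, 51 had the higher mean in osteoblasts, against 44.4% of all genes, with a median log2 fold change of 0.15 against -0.03. In 17 genes the osteoblast arrays were wholly higher and in 1, Rps29, wholly lower, against 12.1% and 16.0% of all genes. By limma 2 genes passed, both higher in osteoblasts, where 4.89% of all genes were called higher and 10.6% in either direction. At an unadjusted p under 0.05 there were 13 of 60 (22.8% of all genes), all higher. Without the third endothelial array from tumor-bearing mice, the lowest of the 12 in these genes, 44 of 60 were positive and the median was 0.08; without the third osteoblast array, 47 and 0.09. This comparison uses the arrays from tumor-bearing mice of both tumor comparisons above and adds no independent arrays to them.

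Rplp0, the base of the stalk, was the clearest of all. Its log2 values in osteoblasts from tumor-bearing mice were 11.88, 11.90 and 11.92, and in endothelial cells from tumor-bearing mice 11.34, 11.40 and 11.04. In tumor-free mice they were 11.54, 11.78 and 11.61 in osteoblasts and 11.21, 11.38 and 11.28 in endothelial cells. The osteoblast arrays lay above the endothelial arrays in both conditions, and those from tumor-bearing mice were the highest. The log2 fold change in tumor-bearing mice was 0.64 ± 0.12, or 1.56-fold (limma adjusted p = 0.00489), and its second probe set gave 0.65. It passed under all 22 alternatives run, with adjusted p from 0.00217 to 0.0322.

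Rpsa, which is both a small-subunit protein and a laminin receptor, was the second. Its values in tumor-bearing mice were 11.49, 11.62 and 11.70 in osteoblasts and 11.16, 11.23 and 11.11 in endothelial cells, which did not overlap. The log2 fold change was 0.44 ± 0.11, or 1.35-fold (limma adjusted p = 0.0253), and its 4 other probe sets gave 0.31 to 0.81. The probe set that gave 0.31 was dim, above the 40th percentile in 1 of 12 arrays. In tumor-free mice, with 11.65, 11.44 and 11.51 in osteoblasts and 11.27, 11.36 and 11.53 in endothelial cells, the groups overlapped, at 0.15 ± 0.11. The 4 other probe sets gave 0.18, 0.50, 0.63 and, for the dim one, 0.06 in tumor-free mice. A higher mean in osteoblasts was therefore not particular to tumor-bearing mice. The call was lost without the second or the third osteoblast array or any 1 endothelial array from tumor-bearing mice, without the third array of both osteoblast groups, and when only these 2 groups were fitted, with adjusted p from 0.0508 to 0.0986.

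**Figure D5:**
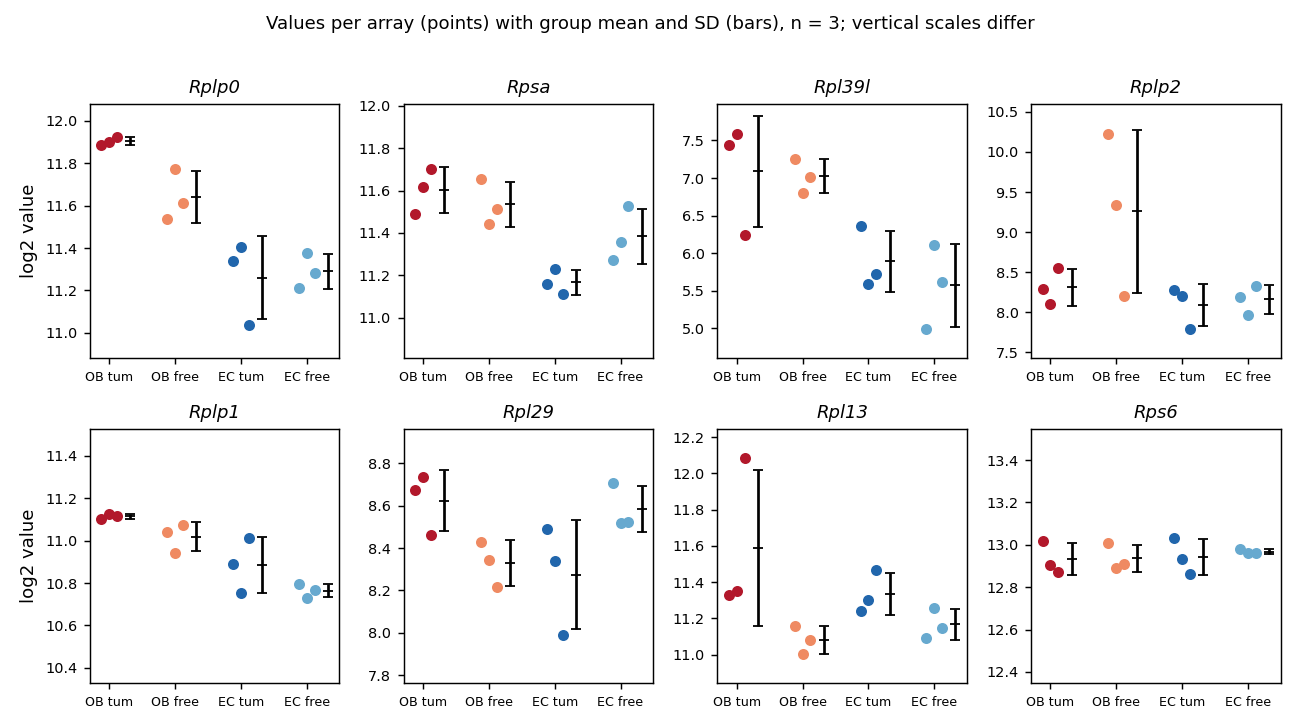
Log2 values per array (points) with group mean and standard deviation (bars, n = 3) for 8 ribosomal protein genes; OB is osteoblasts, EC endothelial cells, tum tumor-bearing and free tumor-free mice. Vertical scales differ between panels. The osteoblast arrays of Rplp0 lie above its endothelial arrays, Rplp2 spreads from 8.20 to 10.23 in osteoblasts of tumor-free mice, and Rps6 stays between 12.86 and 13.03.

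Rpl10a (0.56 ± 0.20) and Rpl41 (0.30 ± 0.11) were next by statistic in tumor-bearing mice, with limma adjusted p of 0.120 and 0.129. For Rpl10a the third endothelial array, at 10.65 against 11.41 and 11.61, sets much of the value, which was 0.28 without it. Rps29 (-0.11 ± 0.08), Rpl22 (-0.09 ± 0.14), Rpl37a (-0.07 ± 0.08), Rps21 (-0.07 ± 0.08) and Rps15a (-0.06 ± 0.12) were the lowest.

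The 5 tested paralogs had pooled within-group standard deviations of 0.13 to 0.52, against a median of 0.11 over the 54 standard genes. The paralogs are dimmer than most of these, however. The median was 0.16 over the 21 ribosomal protein genes with a mean of 11 or less, which include the paralogs, and 0.23 over all such genes. Rps27l, a paralog of Rps27 that responds to p53, had values of 9.62, 9.90 and 10.33 in osteoblasts and 9.60, 9.41 and 8.32 in endothelial cells of tumor-bearing mice, a log2 fold change of 0.84 ± 0.34 (limma adjusted p = 0.163). Its 3 endothelial values were all below the osteoblast ones, while in tumor-free mice the groups overlapped at 0.50 ± 0.34. Rpl7l1, which acts in the nucleolus in making the large subunit, had 7.41, 7.09 and 8.19 in osteoblasts from tumor-bearing mice and 6.76, 7.41 and 6.88 in those from tumor-free mice. Those groups overlapped, with a log2 fold change of 0.54 ± 0.27. Rpl10l, a copy of Rpl10 known from male germ cells, lay between 5.26 and 5.86 in all arrays, close to the dim end of the scale. Over the 5 paralogs that were tested, 3 had positive values with tumor in osteoblasts and 2 in endothelial cells. Between cell types, 4 had the higher mean in osteoblasts of tumor-free mice (median 0.40) and 5 in osteoblasts of tumor-bearing mice (median 0.31), with Rpl39l in tumor-free mice the 1 call among them.

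Genes for making ribosomes were also compared between the cell types. In tumor-bearing mice 22 of 23 assembly genes had the higher mean in osteoblasts, with a median of 0.42, and 5 passed, where 44.4% of all genes had the higher mean and 4.89% were called higher: Nop58 (0.98), Tsr1 (1.25), Nhp2 (1.35), Gnl3 (1.55) and Ltv1 (0.73). Nop58 had values of 10.00, 10.17 and 10.30 in osteoblasts and 9.19, 9.49 and 8.86 in endothelial cells (limma adjusted p = 0.00181). In tumor-free mice 16 of 23 were positive, against 49.1% of all genes, and 1 passed, where 5.38% of all genes were called higher. This was Gnl3, the nucleolar protein nucleostemin, at 1.36 ± 0.35 (limma adjusted p = 0.0286). Of the 22 alternatives, Nop58 and Tsr1 passed in all, Nhp2 in 20, Gnl3 in 18 (with tumor) and 17 (without tumor), and Ltv1 in 9. Among tract-bearing translation genes, 13 of 15 were positive in tumor-bearing mice and Eef1b2 passed at 0.53 ± 0.10, and 8 of 15 were positive in tumor-free mice with none passing. The growth control list had no common direction, with 4 of 8 tested genes positive in tumor-bearing mice and a median of 0.10. In it Myc was 1.63 ± 0.19 and Eif4e 0.88 ± 0.19 higher in osteoblasts of tumor-bearing mice, both called by limma, and the other 6 were not; in tumor-free mice Myc was 0.52 ± 0.19 higher (limma adjusted p = 0.106).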

How the data were processed

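The log2 values were deposited by the authors as 1 table for all 12 arrays, 34760 probe sets; the submitters' processing notes name affy, and its version, summary method and normalization were not given in the sources used here. Probe sets were named from the platform annotation: 21640 had 1 symbol, 1321 several and 11799 none, and the last 2 kinds were left out of the gene tests. Symbols were updated through Entrez identifiers to RefSeq for 21553. The brightest probe set by mean over 12 arrays stood for each of 19937 genes, and 14217 above the 40th percentile in at least 3 arrays were tested.

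Limma (version 3.58.1, R 4.3.3) fitted 1 mean per group to all 12 arrays, and p-values, two-sided, were adjusted by Benjamini-Hochberg over all genes tested, with a threshold of 0.05. The script was tested on simulated data. A gene was called wholly higher when every array of one group was above every array of the other. The members and gene lists were chosen with earlier results of these data known, so lists are described by counts and medians and given no p. In each comparison the genes past the threshold and the 5 highest and 5 lowest by moderated statistic were named, with the paralogs, the stalk, Rpl5 and Rps6, and up to 4 genes of other lists. Alternatives were quantile normalization, median centring, other filters, the mean of probe sets, trend and robust estimation, array weights, a replicate block, leaving out arrays and fitting only the groups compared. Counts of wholly higher or lower genes under other settings, and the motifs CCGGAA and TATAAA, were added after seeing the data. Over all genes tested, deviations from the group means were nearly uncorrelated between same-numbered arrays (-0.05 to 0.07), so the numbers were not taken as pairs. Yet chondrocyte, pan-haematopoietic, macrophage, B cell and erythroid marker medians were each highest at the same number in both osteoblast groups. Those of osteoblast, endothelial and neutrophil markers were not. The correlations therefore do not show that same-numbered osteoblast arrays are unrelated. The p-values measure the spread between arrays, 3 a group, and that number limits the precision. Protein sequences were not analysed here.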

Additional observations from a re-analysis of the deposited data

Results flagged for a closer look

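Rpl29, a large-subunit protein, was the 1 ribosomal protein gene whose arrays moved wholly in opposite directions in the cell types. All 3 osteoblast arrays from tumor-bearing mice were above those from tumor-free mice (log2 fold change 0.29), and all 3 endothelial arrays were below (-0.31). Among all genes tested, 6.18% were wholly higher in osteoblasts and 4.87% wholly lower in endothelial cells. The share with both was not computed, so this count of 1 has no background beside it. Rpl29 was picked out by this rule and was read from 1 probe set. The difference of the effects was 0.60, with a limma adjusted p of 0.663 over all genes tested, and 0.46 to 0.71 when 1 array was left out.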

How the results depend on the processing

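Under each of 22 alternatives (21 for the difference of effects), 0 ribosomal protein genes were called in either tumor comparison or in their difference. In tumor-free mice the count called between cell types was 1, with 2 by the mean of probe sets and 2 without replicate 3 of both osteoblast groups, and 0 to 2 when 1 array was left out. In tumor-bearing mice it was 2, with 1 when only the groups compared were fitted, and 1 to 2 when 1 array was left out. There Rpl39l also passed in 3 of 22 alternatives, 1 of them with 1 array left out, so the count rose above 2 in at least 1 alternative. The replicate block left these counts at 1 and 2 and the median log2 fold changes at 0.10 in osteoblasts and -0.01 in endothelial cells, and it changed no call of a named ribosomal protein gene; with it, the calls of Myc with tumor in osteoblasts (limma adjusted p = 0.138) and of Ltv1 and Mrps28 between cell types in tumor-bearing mice were lost. The median over the 60 genes with tumor in osteoblasts lay between 0.07 and 0.11 when 1 array was left out, with 50 to 53 genes positive, and in endothelial cells between -0.07 and 0.07, with 19 to 45 positive. Some log2 fold changes that passed no test changed sign when 1 array was left out: Rpl10l with tumor in osteoblasts ran from -0.074 to 0.0067, Rps7 with tumor in endothelial cells from -0.25 to 0.0015, Rps15a between cell types in tumor-bearing mice from -0.11 to 0.011, and in the difference of effects Rpl12 from -0.68 to 0.026 and Rpl39l from -0.52 to 0.17, with 0.16 without replicate 3 of both osteoblast groups. The cause was not tested. Moving the start site by up to 5 bases took the share of windows with a pyrimidine run from 17.2% to 34.5%, and the share over all windows from 2.51% to 18.3%. Fits that leave 2 arrays in a group assume that they vary like the other groups.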

Other observations

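The mitochondrial ribosome is built from a separate set of nuclear genes, and 76 of 77 such genes were tested. In osteoblasts 51 of 76 had the higher mean in tumor-bearing mice, with a median log2 fold change of 0.11 and values from -1.53 (Mrps26) to 1.39 (Mrpl50), and 0 passed the limma test; 13 had an unadjusted p under 0.05, of which 11 were higher and 2 lower, 17.1% against 9.78% of all genes tested. In endothelial cells 41 of 76 had the higher mean, with a median of 0.04. Their values spread more widely than those of the cytosolic set, whose median in osteoblasts was 0.10. Between cell types, 1 of the 76 genes passed in each condition, and it was higher in osteoblasts. Of all genes tested, 5.38% were called higher in osteoblasts in tumor-free mice and 4.89% in tumor-bearing mice. The gene called was Mrps28, a protein of the small mitochondrial subunit. It was higher by 1.06 in tumor-free mice (limma adjusted p = 0.00738, passing in 22 of 22 alternatives) and by 0.75 in tumor-bearing mice (limma adjusted p = 0.0498, passing in 7 of 22).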
